A study of Mus musculus with 20 samples.

Results

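The tumor necrosis factor (TNF) superfamily ligands, their receptors and the TNF receptor-associated factors (TRAFs) were examined across 20 RNA-seq libraries of mouse macrophages. Members were the protein-coding genes named Tnf, Lta, Ltb, Ltbr, Fas, Fasl, Cd27, Cd40 or Cd70, or with a symbol that starts with Tnfsf, Tnfrsf, or Traf and a digit. This rule gave 51 of the 56748 genes in each count table: 17 ligands, 24 receptors, 7 TRAFs and 3 TRAF-interacting proteins (Traf3ip1, Traf3ip2 and Traf3ip3) that carry the name without being TRAFs. The rule uses names only.

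Ligands of this superfamily are mostly membrane-anchored trimers, and some, TNF among them, are released by proteolytic cleavage. They bind receptors that cluster on the cell surface. Death receptors carry an intracellular death domain through which they recruit adaptors and caspases, most of the remaining receptors bind TRAF adaptors that carry the signal to NF-κB and stress kinases, and decoy receptors bind ligand without a functional signaling domain. In macrophages, lipopolysaccharide (LPS, a bacterial cell wall component) is a classical inducer of TNF, and interferon-γ (IFNγ) primes this response.

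The first experiment compared wild-type macrophages with those of iNOS knockouts, whose Nos2 gene for inducible nitric oxide synthase is disrupted, in 12 libraries labelled as bone marrow-derived macrophages (BMDM). Per the labels these came from C57BL/6J males or females aged 6 to 12 weeks and were grown with 20 ng/mL M-CSF in all groups. Per the study's methods marrow was pooled by genotype and the knockout was the line B6.129P2-Nos2tm1Lau/J. The second compared wild-type and Akr1a1 knockout cells of the mouse macrophage line RAW264.7, in 8 libraries. AKR1A1 is a reductase that removes nitric oxide-derived groups from coenzyme A, and the knockout was made by CRISPR-Cas9, with 2 clonal replicates per group per the study's methods. Each genotype was unstimulated or stimulated for 48 h with 50 ng/mL LPS and IFNγ (30 ng/mL for BMDM and 10 ng/mL for RAW264.7). There were 3 libraries (A, B and C) per group in the first experiment and 2 (A and B) per group in the second. The comparisons ask which members respond to classical activation, and which of these differ when nitric oxide production or its AKR1A1-dependent removal is lost.

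The study's methods name RAW264.7 cells for both experiments, so the first set is called here the libraries labelled BMDM. In all 12 of them Pycard, whose product ASC is known to be missing from RAW264.7 cells, was at or below 0.832 CPM (counts scaled to effective library sizes), and the proliferation gene Mki67 was at 489 to 648 CPM without stimulation. Summed macrophage markers (8 genes) reached 4952 to 10408 CPM in these libraries and 2903 to 9954 CPM in RAW264.7, although Mertk stayed at or below 6.59 CPM in every library. Lists for T or NK lymphocytes, B lymphocytes, dendritic cells and fibroblasts summed to at most 0.693, 3.70, 4.79 and 15.8 CPM. Of the neutrophil list S100a8 reached 419 CPM after stimulation while S100a9 stayed at or below 0.149 CPM. Nos2 was at 10370.2 to 11533 CPM in stimulated wild-type and 870.5 to 912 CPM in stimulated iNOS KO libraries. Akr1a1 was at 427 and 488 CPM in unstimulated wild-type RAW264.7 against 206 and 21.8 CPM in Akr1a1 KO, and after stimulation at 576 and 675 against 370.4 and 212 CPM. Neither difference passed the test. The stimulated iNOS KO library B stood apart from A and C (chi-square per degree of freedom 28.8 and 36.8, against 6.61 between A and C). Between the A and B libraries of wild-type RAW264.7 this measure was 68.6 with and 30.0 without stimulation. In Akr1a1 KO it was 39.2 with and 15.5 without. The unstimulated B library of each RAW264.7 genotype is called stimulated in its title and unstimulated in its treatment field, and was taken as unstimulated. Nos2 was at 30.7 CPM in that of wild-type and 38.1 CPM in that of Akr1a1 KO. In the stimulated RAW264.7 libraries Nos2 was at 4155 to 8806 CPM, so its level places both B libraries with the unstimulated ones. In bulk RNA, fewer expressing cells and less RNA per cell cannot be told apart.

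To show the regulatory sequence next to the values, the 250 bases before the start site were read from RefSeq promoters (GRCm38.p6), which held 45 promoters of 41 of the 51 members. The members without an entry were Cd40, Cd70, Tnfrsf10b, Tnfrsf11b, Tnfrsf22, Tnfrsf26, Tnfsf12, Tnfsf4, Tnfsf9 and Traf3ip2. Both strands were searched for the NF-κB motif (kappaB). A kappaB match stood in 4 of the 45 promoters (8.89%; Ltb, Tnfrsf8, Tnfrsf9 and Traf3) and in 3.9% of all 32851 promoters. Shown 5′ to 3′ are the called members with the largest increase and decrease in stimulated iNOS KO cells (Traf3ip3 and Tnfsf15), Tnf, and Ltb and Tnfrsf9, which were called with a log2 fold change over 1 in size and hold a match, whose letters are in capitals. A match is a description of these letters and no evidence of binding.
Traf3ip3 (chr1:193201547-193201796, minus strand): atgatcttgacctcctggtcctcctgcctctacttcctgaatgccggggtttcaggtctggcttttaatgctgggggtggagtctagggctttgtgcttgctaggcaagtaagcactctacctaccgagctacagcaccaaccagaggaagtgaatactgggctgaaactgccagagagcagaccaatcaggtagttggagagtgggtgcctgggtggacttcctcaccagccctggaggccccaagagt
Tnfsf15 (chr4:63745060-63745309, minus strand): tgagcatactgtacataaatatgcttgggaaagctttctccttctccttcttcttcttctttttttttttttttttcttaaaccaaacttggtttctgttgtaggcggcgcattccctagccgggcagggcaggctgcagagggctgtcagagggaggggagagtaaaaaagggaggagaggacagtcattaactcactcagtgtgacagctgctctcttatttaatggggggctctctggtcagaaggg
Tnf (chr17:35202008-35202257, minus strand): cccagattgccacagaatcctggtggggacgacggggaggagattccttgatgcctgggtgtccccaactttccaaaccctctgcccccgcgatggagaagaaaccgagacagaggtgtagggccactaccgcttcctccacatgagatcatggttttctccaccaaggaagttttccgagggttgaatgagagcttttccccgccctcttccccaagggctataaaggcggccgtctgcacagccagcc
Ltb (chr17:35194257-35194506, plus strand): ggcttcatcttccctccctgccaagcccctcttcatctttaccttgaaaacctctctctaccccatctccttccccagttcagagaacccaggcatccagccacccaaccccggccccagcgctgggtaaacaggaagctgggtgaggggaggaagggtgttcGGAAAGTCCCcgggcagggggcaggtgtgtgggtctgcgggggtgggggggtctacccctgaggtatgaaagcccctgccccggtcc
Tnfrsf9 (chr4:150927749-150927998, plus strand): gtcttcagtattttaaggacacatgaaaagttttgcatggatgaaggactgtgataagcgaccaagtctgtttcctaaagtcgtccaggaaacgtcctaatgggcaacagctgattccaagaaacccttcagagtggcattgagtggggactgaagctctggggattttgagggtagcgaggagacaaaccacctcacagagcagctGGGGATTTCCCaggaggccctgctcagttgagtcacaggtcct
The Tnfrsf9 promoter shown, the second of its entries, held 2 kappaB matches that overlap by all but 1 base, and the Ltb match is on the opposite strand. The first Tnfrsf9 entry, not shown, had no match. Traf3ip3, Tnfsf15 and Tnf had no match to these letters in this window.

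Of the 51 members, 42 had at least 10 counts in total in each experiment and were tested, and 36 in each experiment had a mean above 1 CPM in at least 1 group. Across both experiments 38 members were above 1 CPM. Of these, 34 were above it in both, Tnfsf10 and Tnfsfm13 only in the libraries labelled BMDM, and Cd27 and Tnfrsf4 only in RAW264.7. The 13 members at or below 1 CPM in every group were the ligands Fasl, Cd70, Tnfsf4, Tnfsf8, Tnfsf11 and Tnfsf14 and the receptors Tnfrsf21, Tnfrsf25, Tnfrsf11b, Tnfrsf13c, Tnfrsf17, Tnfrsf18 and Tnfrsf19. Of these, Tnfsf11 (RANKL) and Tnfrsf11b (osteoprotegerin, its decoy receptor) held 0 counts in all 20 libraries, whereas their partner Tnfrsf11a (RANK) was well expressed.

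**Figure D1:**
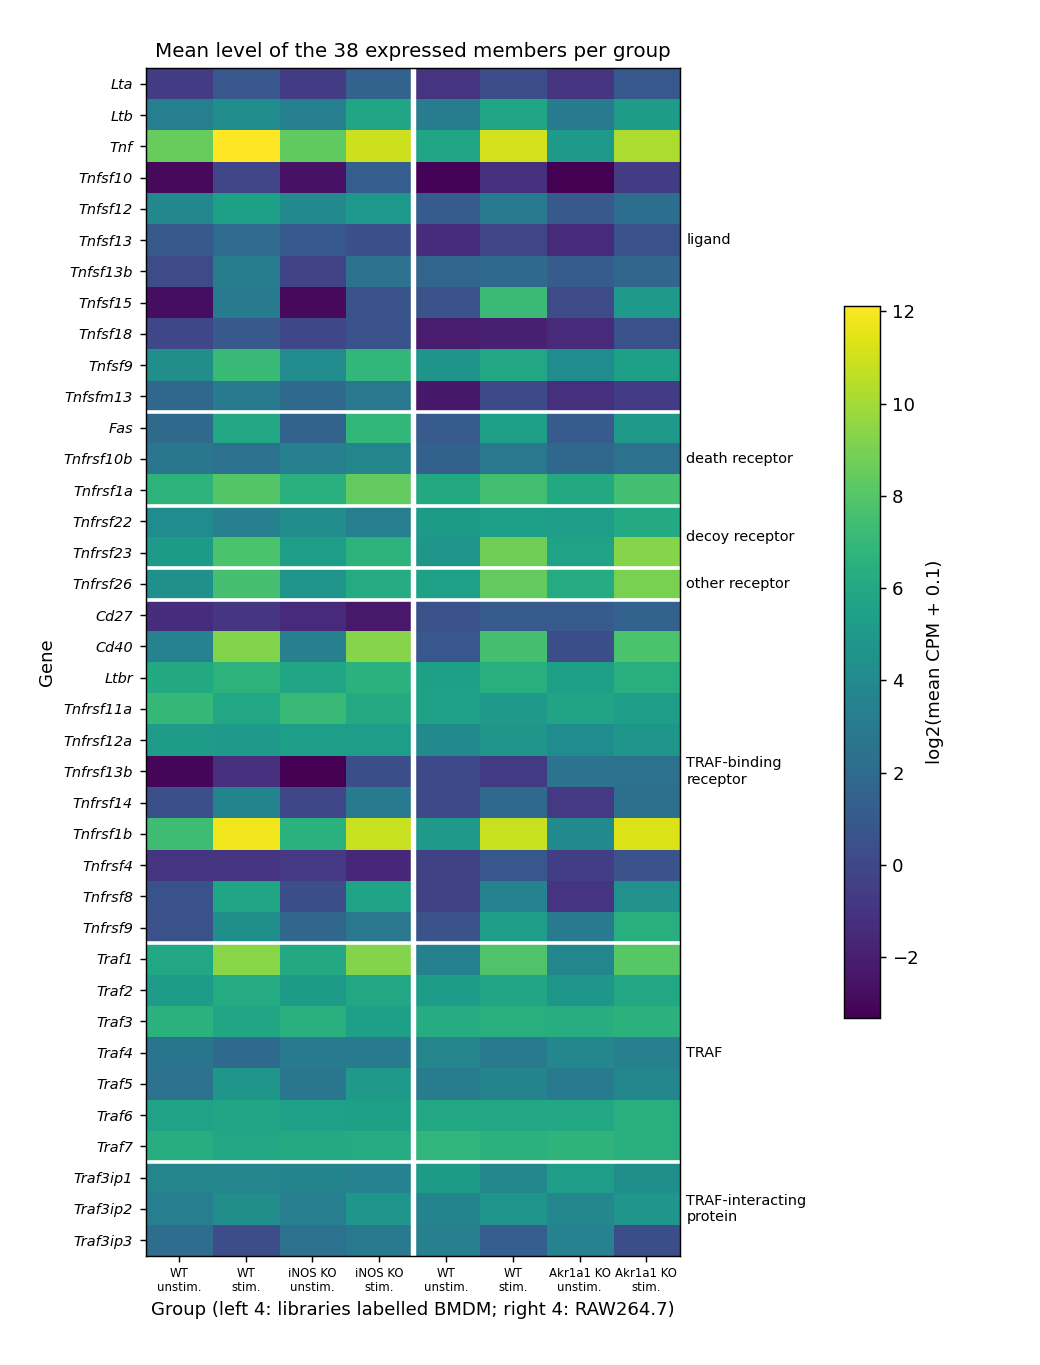
Mean level of the 38 members above 1 CPM in each of the 8 groups, as log2(mean CPM + 0.1), with genes on the vertical axis ordered by role and groups on the horizontal axis. Tnf and Tnfrsf1b are the brightest rows in all 4 stimulated groups, while Traf2, Traf3, Traf6 and Traf7 change little in color.

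Per kilobase of transcript, Tnf was the highest member in stimulated wild-type cells, at 2719 CPM per kb in the libraries labelled BMDM and 1287 CPM per kb in RAW264.7. Its receptor without a death domain, Tnfrsf1b (TNFR2), followed at 920.5 and 484 CPM per kb. Cd40 came next in the libraries labelled BMDM, at 171 CPM per kb. The death-domain receptor Tnfrsf1a (TNFR1) was at 98.9 and 68.4 CPM per kb. Thus both TNF receptors were present, with the transcript of TNFR2 above that of TNFR1 after stimulation.

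Stimulation raised most of the expressed superfamily in wild-type cells labelled BMDM. Of the 42 members tested, 28 rose and 7 fell, where 32.4% of all genes tested rose and 28.5% fell (60.9% in either direction). With an absolute log2 fold change over 1 as a further limit, 25 rose and 2 fell (19.7% and 15.7% of all genes). The members had a median log2 fold change of 1.30, and all genes one of 0.07. By role, 13 of 14 ligands tested rose and 1 fell. Among receptors, 2 of 3 death receptors and 7 of 12 TRAF-binding receptors rose. TRAFs were split, with 3 risen and 3 fallen of 7. Beside these values, Mki67 was at 489 to 569 CPM without and 27.7 to 31.3 CPM with stimulation, and its part in them was not tested.

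Among ligands, Tnf itself (ENSMUSG00000024401, listed on chromosome 17, 35418357 to 35420983, between Lta and Ltb) was at 362, 371 and 382 CPM in the unstimulated wild-type libraries A, B and C and at 4612, 4670.1 and 4089 CPM in the stimulated ones. All stimulated libraries were above all unstimulated ones, and the log2 fold change was 3.58 ± 0.097 (SE), edgeR adjusted p = 4.61e-15. Tnfsf9 (4-1BBL, the ligand of Tnfrsf9) rose from 21.1, 18.0 and 21.1 to 148, 134 and 125 CPM, by 2.75 ± 0.13 on the log2 scale. Tnfsf15 (TL1A, known for its role in mucosal inflammation) was nearly absent at 0.150, 0 and 0 CPM and reached 7.27, 8.17 and 10.3 CPM, at least 52.3-fold higher when the unstimulated group is set to 3 counts per library. Tnfsf13b (BAFF, a B cell survival factor) rose from a mean of 1.03 to 8.71 CPM and Tnfsf12 (TWEAK) from 14.6 to 43.1 CPM. Tnfsf8 (CD30L) was the ligand that fell, from 0.386 CPM to 0 counts in the stimulated libraries, at least 1.87-fold lower, while its receptor Tnfrsf8 (CD30) rose from 1.37 to 52.9 CPM.

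Among receptors, Cd40, which receives help signals from T cells, had the largest increase of those above 3 counts in both states. It was at 9.77, 11.8 and 12.7 CPM in unstimulated and 549, 578 and 620.1 CPM in stimulated wild-type libraries, a log2 fold change of 5.67 ± 0.10 (SE), edgeR adjusted p = 3.59e-17. Tnfrsf1b rose from 153, 149.9 and 169.7 to 3316, 3629.9 and 3597 CPM, by 4.48 ± 0.078 on the log2 scale. Fas, the receptor of Fas ligand, rose from 4.34, 4.06 and 3.64 to 61.4, 58.8 and 61.8 CPM, by 3.91 ± 0.16. In each of these 3 genes the stimulated libraries lay far above the unstimulated ones with no overlap. Tnfrsf1a rose less, from 106, 90.7 and 101 to 242, 262 and 264 CPM. Tnfrsf11a, the receptor through which RANKL drives osteoclast formation, fell from a mean of 123 to 61.6 CPM, by 0.99 ± 0.07.

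Of the adaptors, Traf1, a known NF-κB target, was at 61.7, 51.6 and 62.8 CPM without and 642, 679.8 and 688 CPM with stimulation, an increase of 3.51 ± 0.089 (edgeR adjusted p = 1.92e-15). Traf5 rose by 2.44 ± 0.12 and Traf2, which links TNFR1 and TNFR2 to NF-κB, by 0.94 ± 0.091. Traf3, a negative regulator of the noncanonical NF-κB pathway, fell by 0.81 ± 0.072, Traf4 by 0.65 ± 0.15 and Traf7 by 0.40 ± 0.078. Traf6, the TRAF used by Toll-like receptors, had a log2 fold change of 0.18 ± 0.084 and did not pass. Traf3ip3 fell by 1.95 ± 0.18, from 4.44, 4.50 and 4.64 to 1.11, 1.01 and 1.39 CPM, so that the groups did not overlap.

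In iNOS KO cells 27 members rose and 4 fell with stimulation, where 27.3% and 24.6% of all genes did (51.9% in either direction). The members' log2 fold changes had a median of 0.93, against -0.000322 for all genes. With the fold limit 20 rose and 3 fell (14% and 8.78% of all genes, 22.8% together). Of the members, 25 rose in both genotypes, that is 25 of the 28 that rose in wild-type cells, where 63.3% of all genes that rose in wild-type cells did. A further 4 (Tnfsf8, Tnfrsf11a, Tnfrsf22 and Traf3) fell in both genotypes. Tnfsf13, Tnfsf14 and Tnfsf18 rose in wild-type cells and did not pass in iNOS KO, and Tnfrsf10b rose in iNOS KO and did not pass in wild-type cells. Tnfsf14 lost its call by DESeq2 (adjusted p = 0.0516). It also lost it without stimulated wild-type library A (edgeR adjusted p = 0.0688) or C (0.06945) or unstimulated wild-type B (0.106). Tnfsf18 lost its call without stimulated wild-type C (0.118). Tnfrsf10b lost its own without stimulated iNOS KO A (0.0846) or unstimulated A (0.0873) or C (0.0844). Tnfsf14 and Tnfsf18 did not pass the interaction test. Traf3ip3 was the 1 member that fell in wild-type and rose in iNOS KO cells. The interaction of genotype and stimulation, which tests the difference between the responses, passed for 14 members: 8 responded more positively in iNOS KO cells (20% of all genes did) and 6 less so (15.4%). With the fold limit these were 3 and 4 (9.34% and 5.69% of all genes, 15% together).

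**Figure D2:**
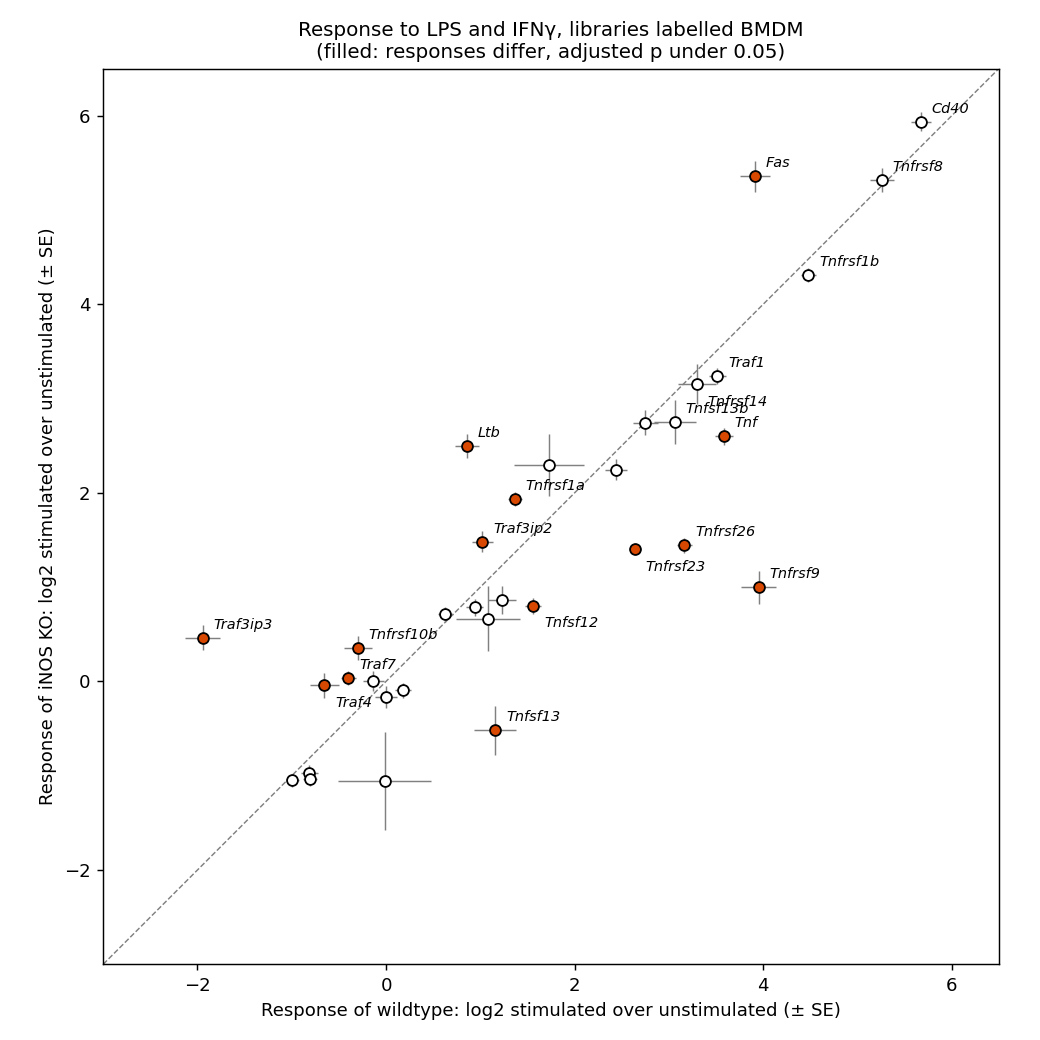
Response to LPS and IFNγ of 34 members in wild-type (horizontal axis) and iNOS KO cells (vertical axis) labelled BMDM, as log2 fold changes with SE bars, leaving out those with a group at 3 counts or fewer. Filled points have responses that differ (edgeR adjusted p under 0.05). Fas, Ltb and Traf3ip3 lie furthest above the dashed line of equal response, and Tnfrsf9, Tnfrsf26 and Tnfsf13 furthest below it.

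Stimulated iNOS KO cells differed from stimulated wild-type cells in 25 of the 42 members tested, 11 higher and 14 lower. Over all genes tested, 24.2% were higher and 24.2% lower, so the share of members that differed (25 of 42) stood beside a background of 48.4% in either direction. Absence of iNOS cannot be told apart here from other differences between the wild-type and knockout cells. With the study's added limit of an absolute log2 fold change over 1, 6 members were higher and 7 lower, against 10.7% and 8.87% of all genes (19.6% together). The 3 death receptors tested all rose, and 5 of 14 ligands fell while 2 rose. Of the 12 TRAF-binding receptors tested 2 were higher and 4 lower, and of the 7 TRAFs 2 were higher and 3 lower. Stimulated iNOS KO libraries also kept more Mki67, at 148 to 282 CPM against 27.7 to 31.3 CPM in stimulated wild-type cells, and a higher sum of macrophage markers, at 9968 to 10408 against 6581 to 7360 CPM. The fibroblast list summed to 10.4 to 15.8 against 3.58 to 4.92 CPM, of which Col1a1 and Col1a2 were near 0 and Dcn reached 15.5 CPM. The part of these shifts in the members' differences was not tested.

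**Figure D3:**
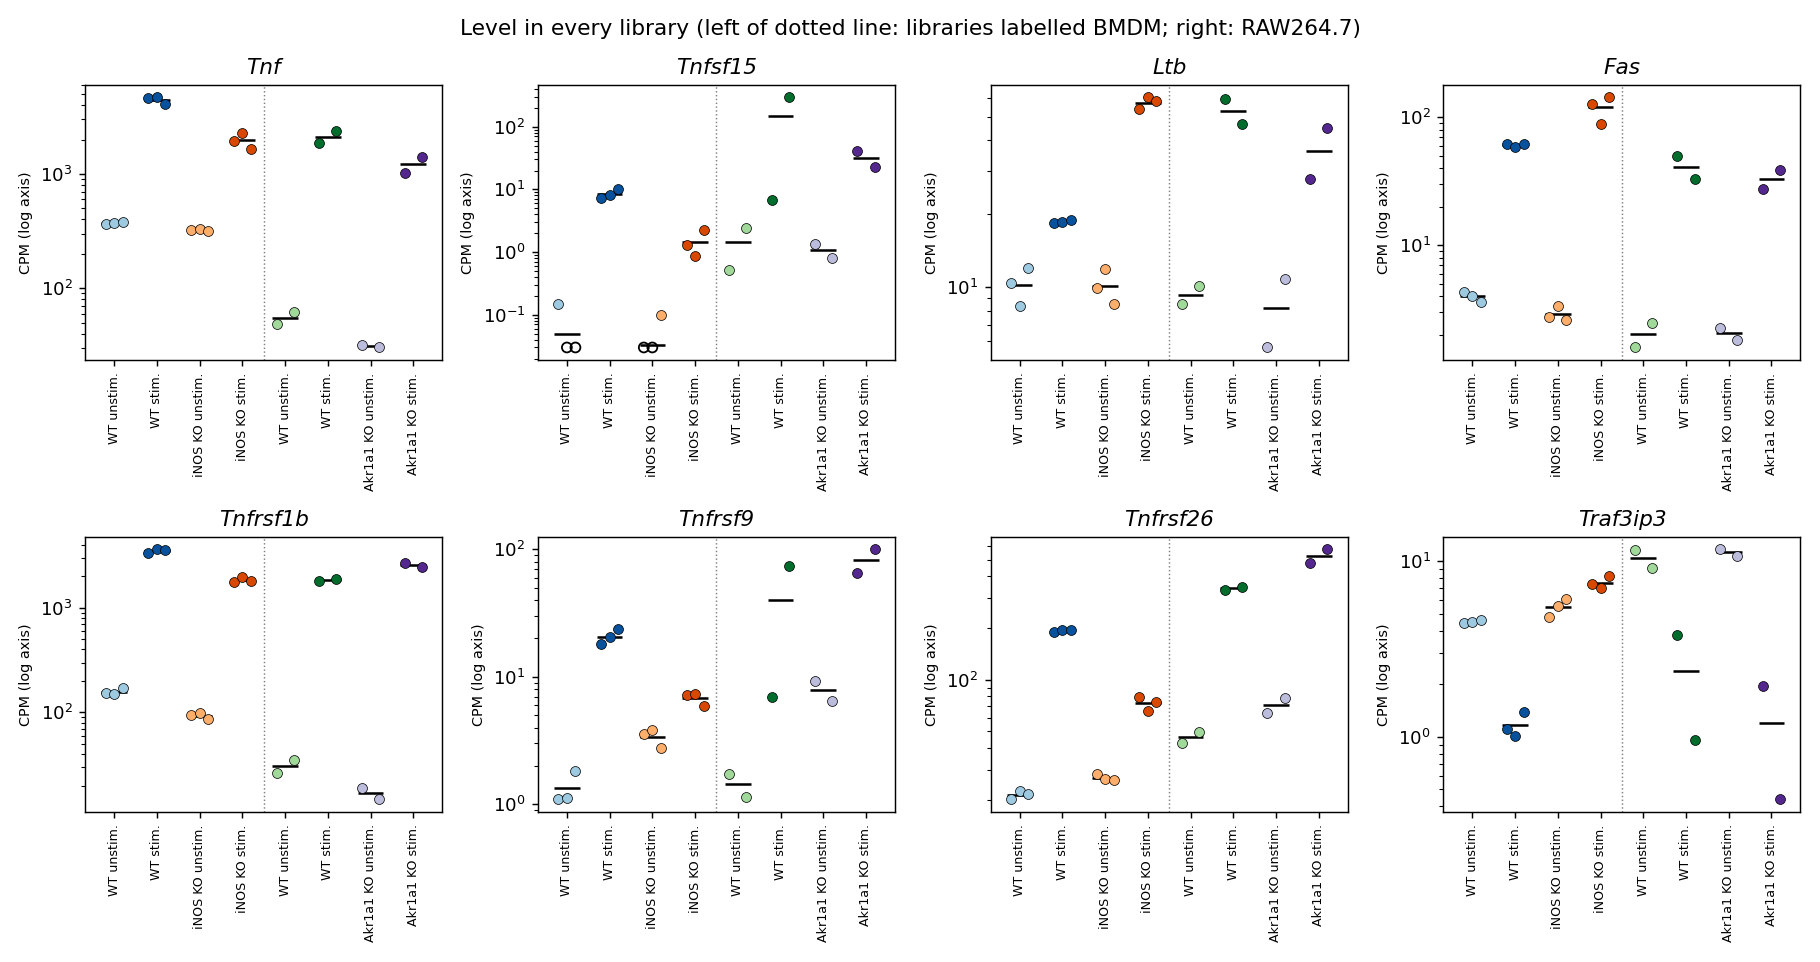
CPM on a log axis in each of the 20 libraries for Tnf, Tnfsf15, Ltb, Fas, Tnfrsf1b, Tnfrsf9, Tnfrsf26 and Traf3ip3, with points for libraries, bars for group means and open circles at the axis floor for 0 counts. Stimulated iNOS KO points lie below stimulated wild-type points for Tnf, Tnfsf15, Tnfrsf1b, Tnfrsf9 and Tnfrsf26, and above them for Ltb, Fas and Traf3ip3.

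Tnf was lower in stimulated iNOS KO cells, at 1937, 2299 and 1664 CPM in libraries A, B and C against 4612, 4670.1 and 4089 CPM in wild-type. The group means were 1967 ± 319 and 4457 ± 320.1 CPM (SD, n = 3), and no iNOS KO library reached the lowest wild-type one. The log2 fold change was -1.18 ± 0.089 (SE), edgeR adjusted p = 7.94e-09. Its neighbour Ltb, the membrane partner of lymphotoxin, went the other way, with 53.6, 60.1 and 58.0 against 18.3, 18.5 and 18.9 CPM and a log2 fold change of 1.62 ± 0.12 (SE), edgeR adjusted p = 6.57e-09. Lta, on the other side of Tnf, was at 2.83 against 1.76 CPM and did not pass (0.68 ± 0.29). Its libraries held 2.70, 3.10 and 2.69 against 1.45, 1.82 and 2.01 CPM, without overlap, at an edgeR adjusted p of 0.0676. It passed in 5 alternatives: with no filter (0.0475), with protein-coding genes only (0.0481), with only the compared groups fitted (0.0176), and without unstimulated library B of iNOS KO (0.0499) or wild-type (0.0398).

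Tnfsf15 had the largest decrease of all members, at 1.29, 0.865 and 2.27 against 7.27, 8.17 and 10.3 CPM (log2 fold change -2.51 ± 0.31 (SE), edgeR adjusted p = 3.02e-06). Tnfsf13 (APRIL, a plasma cell survival factor) was at 0.771, 1.59 and 1.37 against 3.67, 4.32 and 4.44 CPM and fell by 1.74 ± 0.25. In both ligands the groups were apart. Tnfsf13 and Tnfsf12 lie within the read-through gene Tnfsfm13 in the tables, so reads of the 3 may have been split between them. Tnfsf12 fell by 0.54 ± 0.084 and Tnfsf13b by 0.69 ± 0.18, while Tnfsfm13 was not called. Tnfsf10 (TRAIL, which binds a death receptor) rose by 1.49 ± 0.41 from a low level, with 2.96, 1.66 and 2.33 against 0.554, 1.28 and 0.624 CPM. Tnfsf9 was at 109, 143 and 101 against 148, 134 and 125 CPM, overlapping groups with a log2 fold change of -0.20 ± 0.12 (SE), edgeR adjusted p = 0.172. Without the stimulated iNOS KO library B, which stood apart, it passed (-0.37, edgeR adjusted p = 0.000379).

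The death receptors were higher in stimulated iNOS KO cells. Fas reached 128, 88.8 and 143 CPM in stimulated iNOS KO libraries against 61.4, 58.8 and 61.8 CPM in wild-type, and library B, which stood apart, was the lowest of the 3. The groups did not overlap, and the log2 fold change was 0.98 ± 0.13 (SE), edgeR adjusted p = 5.8e-06. Tnfrsf10b, the mouse TRAIL receptor, was at 13.5, 13.3 and 12.7 against 4.50, 6.62 and 4.65 CPM and rose by 1.32 ± 0.14. Tnfrsf1a was at 322, 370.0 and 330.0 against 242, 262 and 264 CPM and rose by 0.41 ± 0.073 (edgeR adjusted p = 0.000165). The ligand Fasl held at most 1 count per library there, so the receptor differed where its ligand was not detectable at this depth.

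Tnfrsf1b, in contrast, was lower, at 1762, 1968 and 1798 against 3316, 3629.9 and 3597 CPM, with a log2 fold change of -0.93 ± 0.068 (SE), edgeR adjusted p = 5.2e-09. The transcripts of the 2 TNF receptors thus differed in opposite directions. Tnfrsf9 (4-1BB, a costimulatory receptor) was at 7.20, 7.28 and 5.91 against 17.9, 20.5 and 23.6 CPM and fell by 1.61 ± 0.15 (edgeR adjusted p = 1.67e-07). It overlaps Camta1 on the opposite strand in the tables, which had a log2 fold change of 0.38, and whether reads were counted by strand is not given in the sources used here. Cd40 was at 593, 657 and 663 against 549, 578 and 620.1 CPM, a difference of 0.13 ± 0.08 (SE), edgeR adjusted p = 0.196, and its groups overlapped.

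Tnfrsf22, Tnfrsf23 and Tnfrsf26 form a run of related genes on chromosome 7 (listed from 143161396 to 143239609), the first pair being decoy receptors for TRAIL. Tnfrsf23 was at 102, 105 and 102 against 206, 216 and 220.0 CPM and fell by 1.06 ± 0.061 in stimulated iNOS KO cells. Tnfrsf26 was at 79.3, 66.1 and 74.5 against 189, 194 and 194 CPM and fell by 1.39 ± 0.075 (edgeR adjusted p = 1.27e-10). Both sets of libraries were far apart, whereas Tnfrsf22 was at 9.65 against 10.3 CPM and did not pass (-0.09 ± 0.096). With stimulation Tnfrsf23 and Tnfrsf26 rose in wild-type cells by 2.64 ± 0.065 and 3.16 ± 0.081 while Tnfrsf22 fell by 0.82 ± 0.09. The split of reads among such paralogs is uncertain.

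The remaining receptors that were called were at low levels or differed by less. Tnfrsf13b (TACI, a receptor of BAFF and APRIL) was at 0.964, 1.23 and 1.43 against 0.416, 0.405 and 0.208 CPM and rose by 1.80 ± 0.46. Cd27 was at 0.0643, 0.144 and 0.119 against 0.693, 0.405 and 0.208 CPM, at least 2.22-fold lower with the iNOS KO group set to 3 counts per library (edgeR adjusted p = 0.0393). It overlaps Vamp1, which lies on the opposite strand with 2350 counts against 58 for Cd27 and fell by 0.68. Cd27 did not pass by DESeq2 (adjusted p = 0.0664), with only the compared groups fitted (0.063), or with stimulated wild-type library A (0.18) or B (0.0645) or iNOS KO library A (0.111) or C (0.0769) left out. Tnfrsf14 (HVEM) fell by 0.68 ± 0.16, and Tnfrsf12a, the TWEAK receptor, rose by 0.34 ± 0.11. The latter did not pass without stimulated wild-type library A (edgeR adjusted p = 0.102) or iNOS KO library A (0.0649).

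Differences in the TRAFs were small. Traf1 was at 565, 660.4 and 582 against 642, 679.8 and 688 CPM and did not pass, at -0.15 ± 0.079 (SE), edgeR adjusted p = 0.123. It too passed without iNOS KO library B (-0.23, edgeR adjusted p = 0.00441). Traf2 was at 56.8, 63.9 and 55.3 against 71.1, 69.8 and 73.2 CPM, which did not overlap, and fell by 0.28 ± 0.09 (edgeR adjusted p = 0.0149). This call was lost when only the compared groups were fitted (0.0818) and without iNOS KO library C (0.0544). Traf3 fell by 0.33 ± 0.074 and Traf6 by 0.31 ± 0.084, while Traf7 rose by 0.26 ± 0.078. Traf6 too did not pass when only the compared groups were fitted (adjusted p = 0.0952), nor Traf7 without stimulated wild-type library A (0.0514). Traf4 had the largest difference in this role, at 7.65, 10.1 and 7.28 against 4.36, 3.85 and 3.67 CPM (log2 fold change 1.07 ± 0.15 (SE), edgeR adjusted p = 1.36e-05). Traf4 was higher without stimulation too, by 0.41 to 0.51 on the log2 scale over 19 alternatives. It passed in 6 of these, though not in the main fit.

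Traf3ip3, which binds TRAF3 and is known from lymphocytes, had the largest increase of all members. It was at 7.39, 6.99 and 8.24 CPM in stimulated iNOS KO and 1.11, 1.01 and 1.39 CPM in stimulated wild-type libraries, a log2 fold change of 2.69 ± 0.18 (SE), edgeR adjusted p = 1.45e-09. In unstimulated cells it was at 4.81, 5.57 and 6.05 CPM in iNOS KO and 4.44, 4.50 and 4.64 CPM in wild-type libraries. The stimulated wild-type group was thus the low one among the 4. It overlaps A130010J15Rik on the opposite strand, which was lower in stimulated iNOS KO cells (log2 fold change -0.47). Traf3ip2 (ACT1, an adaptor of interleukin-17 receptors) rose by 0.44 ± 0.10.

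Unstimulated iNOS KO cells differed from wild-type in 4 members, of which 3 were higher and 1 lower (1.88% and 4.09% of all genes, 5.98% together). Tnfrsf1b was already lower there, at 94.1, 97.9 and 86.4 against 153, 149.9 and 169.7 CPM (log2 fold change -0.76 ± 0.069 (SE), edgeR adjusted p = 1.97e-06). Its response to stimulation did not differ between genotypes by the test (interaction -0.17 ± 0.096, edgeR adjusted p = 0.208), but did without the stimulated iNOS KO library B (-0.22, adjusted p = 0.0321). Tnfrsf9 was higher in unstimulated iNOS KO cells, at 3.56, 3.83 and 2.78 against 1.10, 1.11 and 1.82 CPM, by 1.35 ± 0.22, and so lay on opposite sides of wild-type in the unstimulated and stimulated states. Tnfrsf10b was higher by 0.66 ± 0.13, at 9.77, 11.2 and 9.86 against 6.13, 7.12 and 6.22 CPM, as it was after stimulation. Tnfrsf26 was higher by 0.33 ± 0.08, a call that was lost with unstimulated wild-type library A (edgeR adjusted p = 0.121) or C (0.0728) or iNOS KO library A (0.104) or B (0.0518) left out. Tnf was at 326, 327 and 319.9 against 362, 371 and 382 CPM, which did not overlap but did not pass (-0.20 ± 0.088, edgeR adjusted p = 0.261). It passed with no filter on low counts (edgeR adjusted p = 0.0347), with only the compared groups fitted (0.00325) and without the stimulated iNOS KO library B (0.015). Other members that were not called also passed in alternatives. Those higher were Tnfrsf11a in 7, Traf4 in 6, Tnfrsf23 in 4, and Tnfrsf12a and Tnfsf8 in 1 each. Those lower were Fas in 2 and Ltbr in 1. In all, 21 of the 25 members called in stimulated cells were not called without stimulation, and neither were 90% of all 9040 genes called in stimulated cells. Leaving out the stimulated iNOS KO library B, which shares the fit, gave 6 higher and 4 lower.

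In RAW264.7 cells stimulation raised 26 members and lowered 5 when averaged over both genotypes, against 26% and 25.4% of all genes (51.4% together). The members' median was 1.10 on the log2 scale, and that of all genes -0.01. With the fold limit 22 rose and 2 fell (16.3% and 15% of all genes). Of the 28 members that rose in wild-type cells labelled BMDM, 22 rose here, as did 57.7% of all 6051 genes that rose there. Mki67 was at 1230 to 1372 CPM without and 3.39 to 8.17 CPM with stimulation, and its part was not tested. Tnf was at 48.3 and 61.4 CPM in unstimulated and 1855 and 2363 CPM in stimulated wild-type libraries A and B, and the mean response was 5.27 ± 0.18 (SE), edgeR adjusted p = 2.65e-07. Tnfrsf1b rose from 26.1 and 35.4 to 1821 and 1876 CPM and Cd40 from 1.09 and 2.36 to 130.3 and 242 CPM, with mean responses of 6.57 ± 0.17 and 7.02 ± 0.31. In these 3 genes no stimulated library fell within the range of the unstimulated ones. Fas rose by 4.15 ± 0.23, Tnfsf9 by 1.27 ± 0.17, Tnfrsf1a by 1.42 ± 0.083, Traf1 by 4.38 ± 0.25 and Traf2 by 0.84 ± 0.13. Those that fell were Tnfrsf11a, Traf3ip1, Traf3ip3, Traf4 and Traf7, of which Traf3ip3 fell by 2.69 ± 0.49. Of these 5, Traf7 lost the call when stimulated Akr1a1 KO library A was left out (edgeR adjusted p = 0.0505). Traf4 lost it with any stimulated library or either unstimulated B library left out, at adjusted p from 0.0614 to 0.171. Without stimulated Akr1a1 KO library A 3 fell, and without both unstimulated B libraries 2 (Traf3ip1 and Traf3ip3), while 21 rose in the latter fit. Of the members that rose, Traf6 lost its call in 8 of 16 alternatives. Tnfrsf4 and Tnfrsf22 lost it in 4 each, and Lta and Tnfsfm13 in 1 each. Of those not called, Traf3 passed in 5 alternatives, Traf5 in 4, Tnfrsf10b in 2 and Tnfsf18 in 1, all as increases. Traf3 had a positive log2 fold change in every alternative (0.17 to 0.35), whereas it fell in both genotypes labelled BMDM.

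Several members varied widely between the pair of RAW264.7 libraries of 1 group. Tnfsf15 was at 6.84 and 293 CPM in stimulated wild-type libraries A and B, and Tnfrsf9 at 6.92 and 73.5 CPM in the same pair. The B library was the high one for both. Tnfrsf10b was higher in library A than in B in all 4 groups, by 1.6-fold to 13.7-fold, with 6.28 and 0.661 CPM in unstimulated and 10.3 and 0.753 CPM in stimulated Akr1a1 KO. Tnfrsf13b was higher in B than in A in all 4 groups, by 2.43-fold to 12.9-fold, with 1.81 and 9.71 CPM in unstimulated and 3.28 and 7.97 CPM in stimulated Akr1a1 KO. Whether a letter marks the same clone in the 2 states is not given in the sources used here.

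Between Akr1a1 KO and wild-type cells 0 of the 42 members tested differed by edgeR after stimulation, where 0.286% of all genes passed (0.0869% higher and 0.199% lower), and 0 without it, where 0.583% did (0.23% higher and 0.353% lower). At an unadjusted p under 0.05 there were 10 members after stimulation (11.1% of all genes) and 8 without it (8.04%). DESeq2 called 3 after stimulation (Tnfrsf13b and Tnfrsf26 higher, Tnf lower), where it called 3.56% of the genes to which it gave an adjusted p. Without stimulation it called 4 (Tnfrsf23 and Tnfrsf26 higher, Tnf and Tnfrsf1b lower), against 2.51% of such genes. The median SE of a member's log2 fold change was 0.32 here and 0.12 in stimulated iNOS KO. Of the differences between responses 0 passed by edgeR (0.0204% of all genes, 0.00511% higher), with 3 members at an unadjusted p under 0.05 (5.51% of all genes) and 1 called by DESeq2 (Tnfrsf1b, against 0.728%). Beside these comparisons, the macrophage markers summed to 3335 to 7008 CPM in stimulated Akr1a1 KO against 9111 to 9954 CPM in stimulated wild-type libraries, and the part of this shift was not tested.

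**Figure D4:**
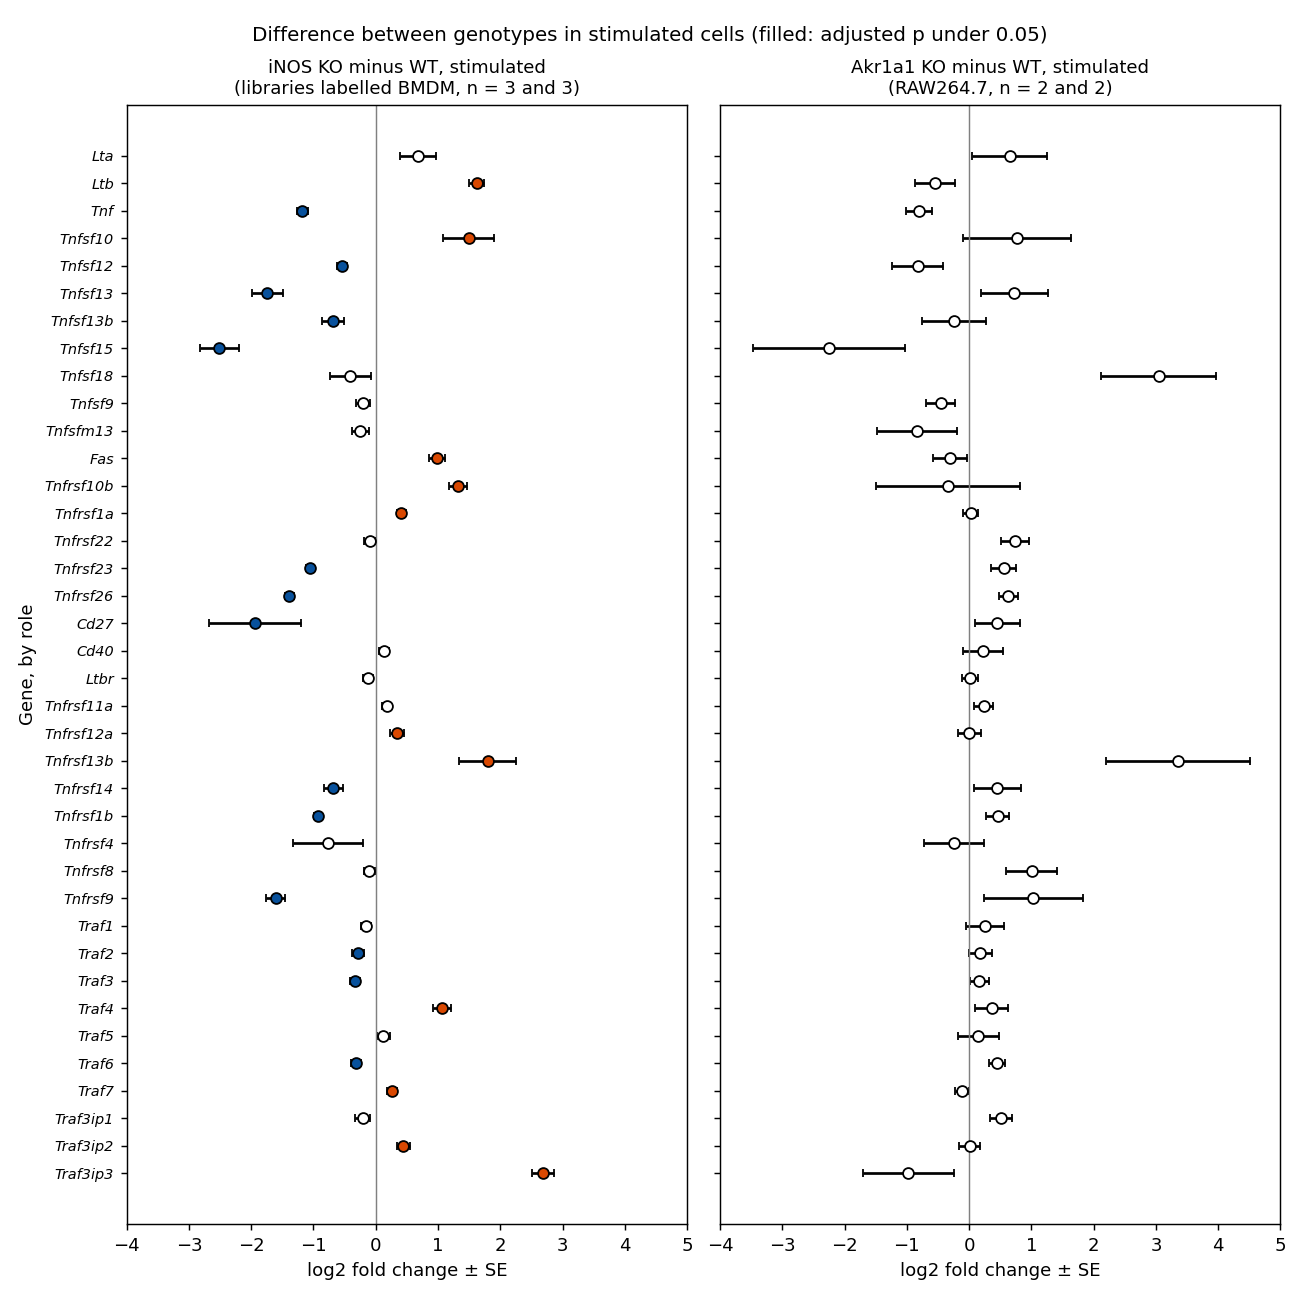
Log2 fold change ± SE of knockout over wild-type in stimulated cells for 38 members in rows ordered by role, in iNOS KO (left) and Akr1a1 KO (right), with filled points at an edgeR adjusted p under 0.05. In iNOS KO 25 points are filled, and in Akr1a1 KO none is, with wider error bars.

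Tnf was lower in both states of Akr1a1 KO cells without passing edgeR's test. Stimulated libraries A and B held 1009 and 1411 CPM against 1855 and 2363 CPM in wild-type (-0.80 ± 0.21 (SE), edgeR adjusted p = 0.22), and unstimulated ones 32.0 and 30.3 against 48.3 and 61.4 CPM (-0.82 ± 0.22 (SE), edgeR adjusted p = 0.251). The groups did not overlap in either state, and DESeq2 called both (adjusted p = 0.00863 and 0.0173). Tnfrsf1b was lower without stimulation, at 19.1 and 14.8 against 26.1 and 35.4 CPM (-0.87 ± 0.20), and higher with it, at 2652 and 2430.2 against 1821 and 1876 CPM (0.46 ± 0.19). Its difference between responses was 1.33 ± 0.27 (SE), edgeR adjusted p = 0.507, against 0.000926 by DESeq2. It passed in edgeR, at 0.0292, with the replicate letter as a block within each genotype, a fit chosen after seeing the data. Tnfrsf26 was at 479 and 574 against 334 and 346 CPM after stimulation (0.63 ± 0.15), which DESeq2 called (adjusted p = 0.00404) and edgeR did not (0.189). Tnfrsf13b held 3.28 and 7.97 against 0.0744 and 0.957 CPM (3.35 ± 1.15 (SE), edgeR adjusted p = 0.346), and passed by DESeq2 (0.0498).

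Stimulated Akr1a1 KO and wild-type libraries did not overlap in 21 of the 42 members tested, 16 higher and 5 lower in Akr1a1 KO. Over all genes, 38.4% did not overlap, 19.9% higher and 18.6% lower. Of these 21, edgeR called 0. Tnfrsf8 was at 22.4 and 22.5 against 11.8 and 10.6 CPM (1.01 ± 0.41 (SE), edgeR adjusted p = 0.421). The decoy receptors Tnfrsf22 and Tnfrsf23 were at 54.9 and 82.8 against 43.3 and 39.2 CPM (0.74 ± 0.22) and at 563 and 699 against 373 and 484 CPM (0.56 ± 0.20). Their edgeR adjusted p values were 0.277 and 0.37. Ltb, which was higher in stimulated iNOS KO cells, was at 27.8 and 44.8 against 59.2 and 46.9 CPM here (-0.55 ± 0.32 (SE), edgeR adjusted p = 0.57).

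Fas was at 27.7 and 38.6 against 49.5 and 32.9 CPM in stimulated Akr1a1 KO and wild-type, Cd40 at 189 and 246 against 130.3 and 242 CPM and Tnfrsf1a at 178 and 182 against 181 and 173 CPM. Traf1 was at 346 and 208 against 169 and 295 CPM and Traf2 at 64.3 and 57.7 against 44.7 and 62.7 CPM. Groups overlapped in these 5 genes, and 0 of the 5 passed edgeR. Tnfsf9 was at 40.5 and 46.7 against 46.4 and 72.9 CPM, with the wild-type library A just below the higher Akr1a1 KO one.

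Genes that act around the receptors were described from 6 lists. In stimulated iNOS KO cells the ubiquitin system list had 1 of 11 members higher and 8 lower (background 24.2% in each direction) and a median of -0.28 on the log2 scale. The receptor-proximal adaptors and death machinery had 1 of 8 higher and 4 lower, the kinases 3 of 10 higher and 4 lower, and the NF-κB list 2 of 8 higher and 2 lower. Of the shedding proteases and their regulators 2 of 5 were higher, and of the 2 ligands and receptors outside the naming rule that were tested 1 was lower. Over all lists, the largest increases were in Ripk3, the kinase of necroptosis (log2 fold change 1.76 ± 0.091), Rhbdf1 (0.93 ± 0.13), which traffics the TNF-cleaving protease ADAM17, and the IκB kinase Ikbkb (0.77 ± 0.072). The largest decreases were in the receptor Eda2r, which binds a form of ectodysplasin (-1.53 ± 0.29), the death agonist Bid (-1.15 ± 0.06) and the IκB kinase subunit Ikbkg (-0.95 ± 0.075). Eda2r was also lower in unstimulated iNOS KO cells (-1.61 ± 0.38 (SE), edgeR adjusted p = 0.0149), and its interaction did not pass (0.08 ± 0.42, edgeR adjusted p = 0.928). With stimulation, all 8 genes of the NF-κB list rose in wild-type cells labelled BMDM and on average in RAW264.7, and 8 of 11 and 10 of 11 genes of the ubiquitin system did, where 32.4% and 26% of all genes tested rose.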

How the data were processed

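Gene counts were taken from 2 deposited tables. Per the labels and the study's methods the libraries were poly(A)-selected, and the authors aligned reads with STAR to mm10 before counting. The deposited values are whole-number counts, without normalization, and other versions are not given in the sources used here. Each of the 12 libraries labelled BMDM held 15072109 to 18878107 counts, and each of the 8 RAW264.7 ones 11876719 to 44583327. The tables name no genome build, and their positions differ from GRCm38, so gene positions are given as listed.

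Groups came from the labels. Genes whose summed counts reached 10 (18691 and 19569) were scaled by TMM and fitted with 1 mean per group over the 4 groups of an experiment with edgeR 4.0.16 under R 4.3.3. The text's "edgeR adjusted p" is from its 2-sided quasi-likelihood F test with Benjamini-Hochberg adjustment over all genes tested, called under 0.05. SE is the absolute log2 fold change over the square root of F. CPM uses TMM library sizes. Where a group held 3 counts or fewer in every library, a fold is a lower bound. The replicates are separate samples per the labels. In the first experiment the cells came from marrow pooled by genotype or from cell lines. Its p-values may thus measure only technical spread between cultures or libraries. The fit was tested on simulated counts with changes planted in expressed genes. At a log2 fold change of 1 in size, it recovered 99 of 100 in stimulated iNOS KO and 37 of 100 in stimulated Akr1a1 KO. At 2 in size it recovered 100 and 92 of 100.

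Members, lists and tests were chosen with earlier results of these data known. Per-library values are given for members above 1 CPM that were called in stimulated iNOS KO and moved by more than 1 on the log2 scale, and for Tnf, Tnfrsf1a, Tnfrsf1b, Fas, Cd40, Tnfsf9, Traf1 and Traf2. Further members, and the promoters beside Traf3ip3 and Tnfsf15, were chosen after their values were seen. Alternatives were DESeq2 1.42.0, its size factors, edgeR's filterByExpr, no filter, protein-coding genes, only the groups compared, a replicate block, a fold limit, each library left out and, added after seeing the data, a replicate block within each RAW264.7 genotype. Promoters came from RefSeq, and protein sequences were not used here. A further planned motif is not reported here.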

Additional observations from a re-analysis of the deposited data

Results flagged for a closer look

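For 14 members the response to stimulation differed between iNOS KO and wild-type cells labelled BMDM by edgeR's test of the interaction (adjusted p under 0.05), where 35.4% of all genes tested did so. Responses were more positive for 8 members (20% of all genes) and less positive for 6 (15.4%). Responses were more positive in iNOS KO cells for Traf3ip3 (difference of log2 fold changes 2.41), Ltb (1.64), Fas (1.44), Tnfrsf10b (0.66), Traf4 (0.61), Tnfrsf1a (0.57), Traf3ip2 (0.46) and Traf7 (0.43). They were less positive for Tnfrsf9 (-2.95), Tnfrsf26 (-1.72), Tnfsf13 (-1.68), Tnfrsf23 (-1.23), Tnf (-0.98) and Tnfsf12 (-0.76). The Traf4 call was lost by DESeq2 (adjusted p = 0.0532). With single libraries left out, Traf4 did not pass without stimulated wild-type B or C, unstimulated wild-type A, stimulated iNOS KO B or unstimulated iNOS KO C, at edgeR adjusted p from 0.0549 to 0.0655. Traf3ip2 did not pass without stimulated wild-type C, unstimulated wild-type A or C, stimulated iNOS KO A or unstimulated iNOS KO C, at 0.0561 to 0.074.

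Tnfrsf22 had responses of opposite sign in the wild-type cells of the 2 experiments. With stimulation its log2 fold change was -0.82 in those labelled BMDM, as against 0.26 in RAW264.7 cells, with no overlap between states in either, and the difference was not tested. Unstimulated and stimulated libraries held 18.8, 17.4 and 18.1 and 9.56, 10.6 and 10.7 CPM in the former and 38.1 and 31.0 and 43.3 and 39.2 CPM in the latter. The flag required opposite signs and no overlap, not a call in either experiment, and the RAW264.7 value rests on 2 libraries per state. As given above, many genes did not overlap in another RAW264.7 comparison of this size. Averaged over both genotypes, the Tnfrsf22 response in RAW264.7 lost its call in 4 of 16 alternatives. The 2 experiments were counted and fitted separately.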

How the results depend on the processing

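Over 6473 combinations of a member, a comparison and an alternative, 6305 stayed on the same side of the threshold, 104 newly passed it and 64 no longer did. The sign changed in 213, all of which passed in neither fit, and in 0 that passed in either. With the added fold limit, stimulated iNOS KO against wild-type gave 6 higher and 7 lower, the unstimulated comparison 1 and 0, the wild-type response 2 lower, the interaction 3 higher and the RAW264.7 mean response 2 lower. For unstimulated iNOS KO, 6 were higher with filterByExpr, 6 with protein-coding genes and 8 with only the groups compared, and 3 were lower with no filter and 2 with only the groups compared. For stimulated Akr1a1 KO, DESeq2 gave 2 higher and 1 lower, no filter 7 and 2, and the replicate block 1 higher (Tnfrsf13b). For unstimulated Akr1a1 KO, DESeq2 gave 2 and 2, no filter 4 and 2, and only the groups compared 1 and 1. For the Akr1a1 interaction, DESeq2 gave 1 higher and no filter 1 and 2. The RAW264.7 mean response had 21 higher and 2 lower without both unstimulated B libraries. The cause of these shifts was not tested.

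With 1 library left out, the counts of members higher and lower ranged from 9 to 12 and 12 to 18 for stimulated iNOS KO, 2 to 6 and 1 to 4 for unstimulated iNOS KO, 26 to 29 and 7 to 9 for the wild-type response, 26 to 27 and 4 to 4 for the iNOS KO response, and 6 to 8 and 6 to 9 for the interaction. In RAW264.7 they ranged from 23 to 27 and 3 to 5 for the mean response, 0 to 1 and 0 to 1 for stimulated and 0 to 1 and 0 to 0 for unstimulated Akr1a1 KO, and 0 to 0 in both directions for the interaction. The single call in stimulated Akr1a1 KO was Tnfrsf9 without stimulated wild-type library B or Tnfsf15 without library A. In unstimulated Akr1a1 KO it was Tnfrsf9, without either of these libraries.

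The labels do not say what the replicate letters mark. Same-letter correlations of deviations from the group means ran from -0.472 to 0.453 in the libraries labelled BMDM (over 0.1 in 6 of 18 pairs) and from -0.141 to 0.461 in RAW264.7 (4 of 12). Between the unstimulated and stimulated states of 1 RAW264.7 genotype they were 0.461 in wild-type and 0.201 in Akr1a1 KO, and between genotypes -0.141 to -0.0182. In RAW264.7, with 2 libraries per group, the correlation of the A libraries equals that of the B libraries, so its pairs are not independent. With the replicate block, 1 member (Tnfrsf13b) was higher in stimulated Akr1a1 KO, where 0 were without it, and Cd27 did not pass in stimulated iNOS KO (adjusted p = 0.0586). With the letter as a block within each RAW264.7 genotype, chosen after seeing the data, the mean response had 27 members higher and 5 lower and the interaction 1 higher (Tnfrsf1b, with 0.291% of all genes called). DESeq2's size factors moved the median of all genes by at most 0.06 (log2). With 2 libraries per group, the median SE of a member was 0.32 in stimulated Akr1a1 KO against 0.12 in stimulated iNOS KO.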
